A study of Mus musculus with 8 samples.

Results

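Retinoid genes of the mouse retina were followed here: 10 genes of retinol dehydrogenation and the visual cycle, out of 26824 genes in the table. They were picked by symbol. Rdh5, Rdh8, Rdh10, Rdh11, Rdh12, Dhrs3, Rlbp1 and Abca4 were listed for their function. Rdh1 and Rdh16f1 were listed because they were strongly raised in the libraries labelled KO, so the values of these 2 genes in that contrast are a description and carry no test. The 10 genes were all in the table and all passed the filter on low counts, which left 20167 genes.

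The study sequenced RNA of whole retina from mice aged 1 month, and each library pooled 2 retinas. The 3 libraries of the WT group are wild type, and the 5 libraries of the KO group are labelled Kv8.2 KO. Kv8.2 is the product of Kcnv2, a potassium channel subunit of photoreceptors that forms channels only with other subunits. All mice were untreated and kept on a daily light and dark cycle, and the labels give no allele, strain or sex. The series text says that 2 KO samples were excluded by the submitters without naming them, so all 8 libraries were used.

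In the visual cycle, light turns 11-cis-retinal in the opsins into all-trans-retinal, which is cleared from the outer segment, reduced to retinol, carried to the pigment epithelium or to Muller glia and turned back into the 11-cis form. ABCA4 is the transporter that moves the retinal adduct out of the disc. RDH8 and RDH12 reduce all-trans-retinal in photoreceptors, and RDH5, RDH10 and RDH11 can act as 11-cis-retinol dehydrogenases, RDH5 in the pigment epithelium. RLBP1 binds 11-cis retinoids in the pigment epithelium and in Muller glia, and DHRS3 reduces retinal to retinol and so limits retinoic acid synthesis. RDH1 and its close relatives oxidise retinol in liver and kidney, where they are best known.

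The libraries held 17759146 to 25188870 counts. Kcnv2 was present in every library, at 519 to 551 counts per 1000000 (CPM, scaled by edgeR's trimmed mean of M values, TMM) in WT and 398 to 585 CPM in the libraries labelled KO, so its gene-level count does not identify the knockouts and directions below are those of the labels. Its log2 fold change was -0.24 (edgeR adjusted p 0.275), and it was called without KO 2 (-0.35, adjusted p 0.0298). It was -0.04 (adjusted p 0.903) in KO 2 and KO 3 and -0.38 (adjusted p 0.000116) in KO 4 to KO 6. KO 4, KO 5 and KO 6 stood apart from the others: mitochondrial genes took 3.03% to 3.701% of their counts, against 5.23% and 6.52% in KO 3 and KO 2 and 7.09% to 7.92% in WT. In KO 3 alone, 4.63% of counts came from lens transcripts (95% interval by Wilson's method 4.62% to 4.64%), and no other library passed 0.156%. KO 2 and KO 3 against WT and KO 4, KO 5 and KO 6 against WT are therefore given as well for the main results below. The labels name no batch, and what sets KO 4 to KO 6 apart and the genotype cannot be told apart within those 3 libraries. In whole retina, fewer cells of a type and less RNA per cell cannot be told apart either. The retina's own markers were abundant (Gnat1, the rod transducin subunit, at 7541 to 13250 CPM).

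Rdh1 (ENSMUSG00000089789) lies on the plus strand of chromosome 10 (GRCm38, chr10:127759721-127768297), and Rdh16f1 (ENSMUSG00000099009) begins in the same place and ends far beyond it (chr10:127759787-127792694). In the GENCODE M21 annotation each has a single transcript of 4 exons. The first exon of Rdh16f1 lies inside the first exon of Rdh1, starting 66 bases later and ending at the same base. Its other 3 exons are those of Rdh9 (ENSMUSG00000056148), the next gene along the chromosome, so Rdh16f1 is annotated as Rdh1 exon 1 joined to Rdh9 exons 2 to 4 across an intron of 28357 bases. By annotation, both transcripts therefore start at the Rdh1 promoter. The 3 stretches of coding exon 1 below show this for the start of the coding sequence, with capitals at the 8 bases of 60 at which Rdh1 and Rdh9 differ (GENCODE M21 transcripts, plus strand, Rdh1 and Rdh16f1 at chr10:127759938-127759997, Rdh9 at chr10:127776485-127776544).
Rdh1 exon 1: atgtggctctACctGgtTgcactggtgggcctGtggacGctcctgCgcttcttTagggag
Rdh16f1 exon 1: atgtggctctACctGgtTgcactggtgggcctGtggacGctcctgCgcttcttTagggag
Rdh9 exon 1: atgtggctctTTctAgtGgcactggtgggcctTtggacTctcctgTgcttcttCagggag

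In exon 3 the likeness was the other way round, with Rdh16f1 equal to Rdh9 and not to Rdh1. Capitals again mark the bases at which Rdh1 and Rdh9 differ, 17 of 60 (Rdh1 at chr10:127764728-127764787, Rdh16f1 and Rdh9 at chr10:127790235-127790294).
Rdh1 exon 3: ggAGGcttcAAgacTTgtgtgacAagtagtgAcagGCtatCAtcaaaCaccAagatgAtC
Rdh16f1 exon 3: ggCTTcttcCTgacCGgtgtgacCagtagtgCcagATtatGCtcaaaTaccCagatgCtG
Rdh9 exon 3: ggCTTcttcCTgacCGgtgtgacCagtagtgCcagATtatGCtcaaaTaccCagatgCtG

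The bases at the join of exon 1 and exon 2, which would tell the 3 transcripts apart if they differed, do not. The 30 bases on each side of it were identical in Rdh1, Rdh16f1 and Rdh9, as shown with exon 1 in capitals.
Exon 1 and exon 2 of all 3 genes: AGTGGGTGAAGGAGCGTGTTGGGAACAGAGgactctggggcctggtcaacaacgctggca

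Over the coding parts of the exons, Rdh1 and Rdh9 were 96.2% identical in exon 1, 93.4% in exon 2, 81.1% in exon 3 and 93.0% in exon 4. Of the words of 31 bases (31-mers) in the Rdh16f1 transcript, 100% occur in another gene, and 89.3% occur in Rdh9. For Rdh1 the share found in any other gene was 27.2%. The division of counts between Rdh16f1 and Rdh9 is therefore uncertain, and that between Rdh1 and the other 2 is less so.

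**Figure D1:**
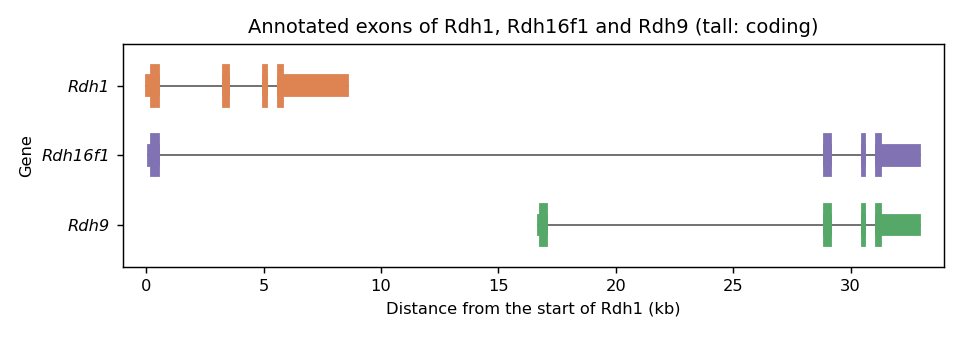
Annotated exons of Rdh1, Rdh16f1 and Rdh9 drawn to scale against distance in kb from the start of Rdh1; tall boxes are coding, low boxes untranslated, lines introns. Rdh16f1 uses the first exon of Rdh1 and exons 2 to 4 of Rdh9.

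Rdh1 and Rdh16f1 were nearly silent in WT and stood at a higher, nearly uniform level in all 5 libraries labelled KO. Rdh1 was at 1.48, 1.505 and 1.07 CPM in WT 1 to WT 3, on 24 to 32 counts a library. It was at 17.7, 16.0, 18.9, 17.1 and 14.9 CPM in KO 2 to KO 6, on 328 to 407 counts. The groups did not overlap, and KO 4 to KO 6, in which 42.8% of tested genes were called against WT, lay on both sides of KO 2 and KO 3. Every KO library was above every WT library for 10.8% of all tested genes, and nothing is read from that here.

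Rdh16f1 was at 1.096, 0.799 and 1.11 CPM in WT 1 to WT 3 and at 13.4, 11.9, 15.1, 12.2 and 13.2 CPM in KO 2 to KO 6. Its order among the KO libraries was not that of Rdh1, but KO 4 was highest for both. The Rdh1 mean was 12.5-fold higher in KO, at 16.9 ± 1.51 CPM (SD, n = 5) against 1.35 ± 0.247 CPM (SD, n = 3). For Rdh16f1 it was 13.1-fold higher, at 13.2 ± 1.24 against 1.00 ± 0.176 CPM. The log2 fold change was 3.65 for Rdh1 and 3.71 for Rdh16f1. Both genes were listed for this rise, so no interval is given for it. These folds ranked 36th and 34th from the top among the tested genes.

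Among the KO libraries the ratio of the 2 genes stayed within a narrow range. Rdh16f1 had 0.780 ± 0.0659 counts for each count of Rdh1 in the libraries labelled KO (SD, n = 5, range 0.713 to 0.884). In WT it had 0.771 ± 0.257 (SD, n = 3), on 17 to 25 counts of Rdh16f1 a library, and what widens this spread was not tested. Summed over both genes, which leaves aside how counts were divided between them, the level was 2.18 to 2.58 CPM in WT and 27.9 to 33.9 CPM in KO, with a coefficient of variation of 8.30% among the KO libraries. With Rdh9 added, 2.40 ± 0.161 CPM in WT became 30.5 ± 2.42 CPM, a 12.7-fold difference. Over 6 genes of the cluster, with Rdh16, Rdh16f2 and Rdh7 added as well, the sum was 3.87 ± 0.486 CPM in WT and 33.7 ± 2.75 CPM in KO, an 8.72-fold difference.

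**Figure D2:**
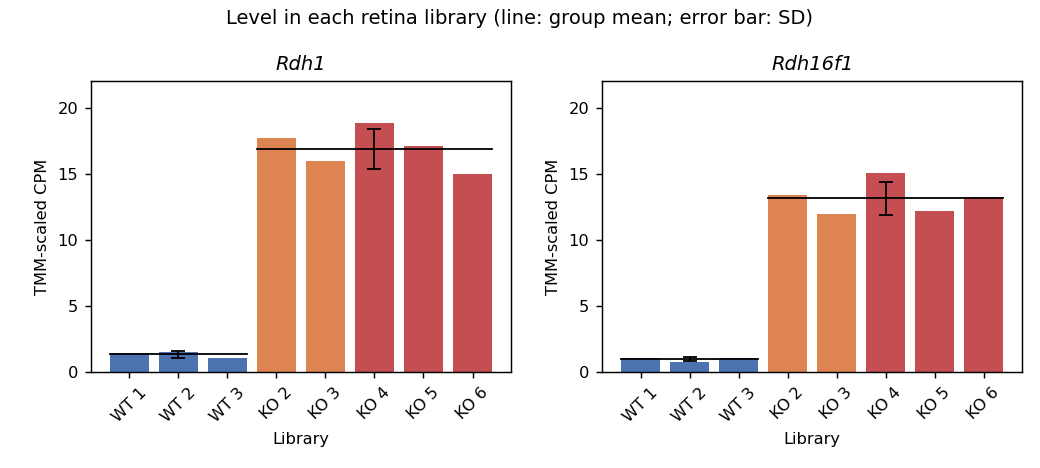
TMM-scaled CPM of Rdh1 and Rdh16f1 (y axis, from 0) in each of the 8 libraries (x axis; WT blue, KO 2 and KO 3 orange, KO 4 to KO 6 red), with the mean of each group as a line and its SD as an error bar. All 5 KO bars stand between 11.9 and 18.9 CPM, and no WT bar passes 1.505 CPM.

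The subsets of KO libraries gave like values. KO 2 and KO 3 against WT gave log2 fold changes of 3.64 (Rdh1) and 3.65 (Rdh16f1), and KO 4 to KO 6 against WT gave 3.66 and 3.76. Over 18028 tested genes the log2 fold change rose with GC content (Spearman correlation 0.459), and the cause was not tested. A fit with an offset for GC content is therefore also given below. In it Rdh1 and Rdh16f1 were at 3.67 and 3.70. Both subsets share the WT libraries. The lowest and highest values over all alternatives were 3.50 and 3.74 for Rdh1 and 3.58 and 3.79 for Rdh16f1.

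Since both transcripts begin at the Rdh1 promoter, the bases before the annotated start are shown (RefSeq promoter table, GRCm38.p6, plus strand, chr10:127759513-127759720), with the 1 motif match in capitals.
Rdh1 promoter: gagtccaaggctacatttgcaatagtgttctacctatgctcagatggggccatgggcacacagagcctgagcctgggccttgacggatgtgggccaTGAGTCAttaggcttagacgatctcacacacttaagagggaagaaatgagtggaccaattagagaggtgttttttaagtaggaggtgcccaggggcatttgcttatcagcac

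The motifs searched, on both strands, were the TATA box (TATAAA), the core site of CRX and OTX2 (TAATCC), the STAT site (TTCNNNGAA), the AP-1 site (TGACTCA) and the nuclear receptor core motif (AGGTCA). The match was an AP-1 site on the minus strand, 112 to 106 bases before the start of Rdh1. Of 32817 promoter windows of the same length (208 bases), 3.77% held that motif, 9.47% the TATA box, 5.39% the CRX and OTX2 core, 5.98% the STAT site and 11.9% the nuclear receptor motif. Of the 8 of 10 genes with a promoter in the table, the AP-1 letters were found in Rdh1, the TATA letters in Abca4 and Rlbp1, the CRX and OTX2 core in Abca4, the nuclear receptor motif in Rdh11 and the STAT letters in none. A match is only a match of letters.

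The next genes of the same family along chromosome 10 were low, and their counts share sequence with Rdh1 and Rdh16f1. Rdh9 had 0, 1 and 2 counts in WT 1 to WT 3 and 6, 14, 10, 4 and 16 in KO 2 to KO 6. Summed over libraries and set per unit of depth, the ratio of KO to WT was 9.76, with an exact 95% interval of 3.15 to 48.9 that covers counting error only. Rdh9 passed the filter on low counts through the KO libraries alone, so its edgeR call (adjusted p 0.0412, and 0.0513 without a filter) is no test of a difference and is not read as one. Of the 31-mers of Rdh9, 68.3% occur in Rdh16f1, so how far these counts belong to Rdh9 is uncertain. Rdh9 did not pass the filter in the fits of KO 2 and KO 3 or of KO 4 to KO 6.

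Rdh16, whose product is another retinol dehydrogenase of the family, was at 1.59, 1.65 and 0.888 CPM in WT and at 2.17, 2.14, 3.50, 1.99 and 3.01 CPM in KO 2 to KO 6. Every KO library was above every WT library, as for 10.8% of all tested genes, but the log2 fold change of 0.90 (SE 0.29) did not pass in edgeR (adjusted p 0.0809). It was 0.65 in KO 2 and KO 3 (adjusted p 0.346) and 1.06 in KO 4 to KO 6 (adjusted p 0.0136), where 42.8% of tested genes were called. Of the 31-mers of Rdh16, 22.4% occur in another gene. Rdh16f2, which the filter on low counts removed, had 1, 0 and 0 counts in WT and 10, 14, 8, 8 and 3 in KO. Its ratio per unit of depth was 25.2, with an exact 95% interval of 4.29 to 1018 for counting error. Rdh7 had 0 to 4 counts in WT and 0 to 16 in KO, and the groups overlapped.

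Genes further from the pair were mixed. Of the 10 annotated genes before Rdh1 on the chromosome, 7 were tested and 1 was called, against 7.58% of all tested genes. It was Nab2, a corepressor of EGR transcription factors, at 12.3 CPM in WT and 27.4 CPM in KO (log2 fold change 1.15, SE 0.18, edgeR adjusted p 0.00770). It was 0.81 in KO 2 and KO 3 (adjusted p 0.0379) and 1.35 in KO 4 to KO 6. Without WT 1 or without WT 3 it was not called (adjusted p 0.0566 and 0.0537). Nab2 overlaps the annotated ends of Nemp1 and Stat6, and whether counting used the strand is not given in the sources used here. The 4 genes closest to Rdh1 on that side were not called: Gpr182 (log2 fold change 0.04, of either sign over the alternatives), Zbtb39 (0.29), Tac2 (-0.39) and Myo1a (-0.18). Without KO 3, Zbtb39 was called (0.35, adjusted p 0.0189). Nemp1 (-0.27, under another symbol in the table, matched by identifier) was called without KO 2 (adjusted p 0.0433), and Stat6 (0.32) in no fit leaving out 1 library. In KO 4 to KO 6, Zbtb39 (0.38), Nemp1 (-0.35) and Stat6 (0.49) were called (adjusted p 0.00147, 0.00804 and 0.0135), as were 42.8% of tested genes. In KO 2 and KO 3 they were at 0.17, -0.14 and 0.04 and were not called. Of the 10 genes after the pair, 2 were tested, Rdh9 and Rdh16.

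The genes whose level followed Rdh1 most closely over the 8 libraries, among the 14890 whose average log2 CPM reached 1, were Prok1 (Pearson r 0.994), Rdh16f1 (0.991), Clu (0.990) and Lonrf1 (0.990), which are 4 of the 5 closest. With 2 groups as far apart as these, any gene with 2 tight levels has a high r, so it is a description over 8 points that share their libraries. Prok1, a secreted prokineticin, was at 1.78 to 2.58 CPM in WT and 12.7 to 18.7 CPM in KO. Clu, the chaperone clusterin made by Muller glia, was at 314 to 352 and 660 to 784 CPM, and Lonrf1 at 27.8 to 29.1 and 47.6 to 54.6 CPM.

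None of the 8 genes listed for their visual cycle function was called in edgeR over all 8 libraries, where 7.58% of tested genes were (4.74% higher and 2.84% lower). With the GC offset it was again 0 of 8, where 7.03% were called (4.24% higher and 2.79% lower). At an unadjusted p under 0.05 there were 3 of 8 over all libraries without the offset, where 27.3% of tested genes were. DESeq2 called 1, Rdh12, where it called 17.5% of all genes. Limma voom with library quality weights called 5, where it called 40.9%. Of the log2 fold changes, 7 of 8 were above 0, as were 10100 of 20167 over all tested genes, with a median of 0.22 against 0.00. The median of the 8 was 0.07 in KO 2 and KO 3, 0.24 in KO 4 to KO 6 and 0.17 with the GC offset. These genes were named with earlier results of these libraries known.

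Per kilobase of the longest annotated transcript, Rlbp1 stood highest in WT at 148 CPM per kb, followed by Abca4 at 130 and Rdh12 at 119, whose ranges overlapped (126 to 136 and 108 to 133). Rdh8 was at 52.1 CPM per kb and Dhrs3 at 23.0. Rdh11 and Rdh10 overlapped (17.15 to 19.2 and 15.95 to 18.17), with Rdh10 at a mean of 17.15, and Rdh5 was at 4.98. Rdh1 and Rdh16f1 were lowest in WT at 0.344 and 0.362 CPM per kb. In KO they were at 4.30 and 4.75 CPM per kb, still lowest, and their ranges (3.802 to 4.799 and 4.315 to 5.448) overlapped that of Rdh5 (4.64 to 9.12). Even at its KO level, Rdh1 thus stood in whole retina at the lower end of the 10 genes.

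Rdh12, a photoreceptor inner segment reductase, was the one gene of the 8 whose groups did not overlap. It was at 322, 366 and 297 CPM in WT 1 to WT 3 and at 271, 235, 264, 292 and 276 CPM in KO 2 to KO 6. All 5 KO libraries were below all 3 WT libraries, with KO 5 and WT 3 closest, and the same held for 10.1% of all tested genes. WT averaged 328 ± 35.2 CPM (SD, n = 3) and KO 268 ± 21.0 CPM (SD, n = 5). The log2 fold change of -0.30 (SE 0.11, 95% interval -0.53 to -0.06) did not pass in edgeR (adjusted p 0.110), and leaving out any single library did not change that (adjusted p 0.0809 to 0.398). DESeq2 gave -0.29 with an adjusted p of 0.0468.

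Rdh8, the all-trans-retinol dehydrogenase of photoreceptor outer segments, was at 74.9, 73.9 and 70.9 CPM in WT and at 74.0, 67.5, 79.0, 83.0 and 84.9 CPM in KO 2 to KO 6. KO 2 lay among the WT values, KO 3 below them and KO 4 to KO 6 above. The log2 fold change was 0.09 (95% interval -0.11 to 0.28, edgeR adjusted p 0.565), and it was -0.12 with the GC offset. Rdh12, which acts on the same substrate, had the lower log2 fold change of the pair in both subsets, at -0.38 against -0.05 in KO 2 and KO 3 and -0.23 against 0.18 in KO 4 to KO 6. The difference between the genes was not tested.

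Abca4 was at 986, 915 and 937 CPM in WT and at 1185, 896, 1264, 1271 and 1270 CPM in KO 2 to KO 6. KO 4, KO 5 and KO 6 were nearly equal, KO 2 lay below them and KO 3 below all WT libraries. WT averaged 946 ± 36.0 CPM (SD, n = 3) and KO 1177 ± 161 CPM (SD, n = 5), with a log2 fold change of 0.32 (SE 0.13, 95% interval 0.03 to 0.60, edgeR adjusted p 0.150). KO 3 decided the call. Without it the log2 fold change was 0.41 and the adjusted p 0.00797. It was 0.32 (adjusted p 0.147) with lens genes left out of all libraries, and 0.20 (adjusted p 0.243) with the GC offset.

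**Figure D3:**
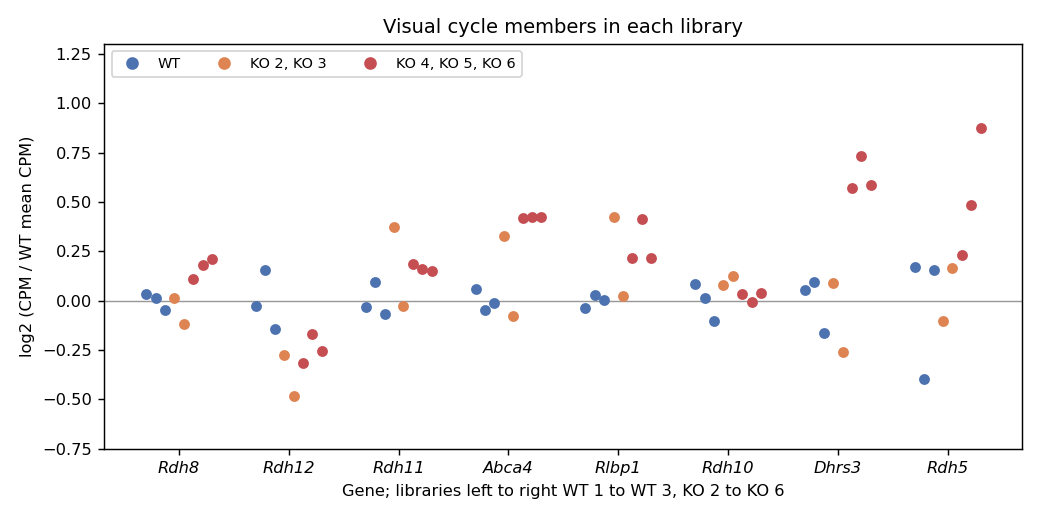
Log2 ratio of each library's CPM to the WT mean (y axis) for the 8 visual cycle genes (x axis), each point 1 library (WT blue, KO 2 and KO 3 orange, KO 4 to KO 6 red). For Abca4 and Dhrs3 the red points sit above the blue ones and an orange point sits below them, and for Rdh12 all KO points sit below the WT points.

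Rlbp1, the retinaldehyde binding protein CRALBP, was at 308, 322 and 317 CPM in WT and at 424, 321, 366, 421 and 368 CPM in KO 2 to KO 6. KO 3 lay within the WT range and the other 4 KO libraries above it. The means were 316 ± 7.15 CPM (SD, n = 3) and 380 ± 42.9 CPM (SD, n = 5), and the log2 fold change was 0.27 (SE 0.11, 95% interval 0.02 to 0.52, edgeR adjusted p 0.160). Without KO 3 it was 0.33 with an adjusted p of 0.0236, and with the GC offset 0.14. The summed level of 10 Muller glia markers was 4913 to 5199 CPM in WT and 5537 to 7682 CPM in KO, highest in KO 2, where Rlbp1 was highest too. Of these 10 markers edgeR called 4 higher (Clu, Kcnj10, Sox9 and Vim) and 0 lower, against 4.74% and 2.84% of all tested genes, and their part in the Rlbp1 level was not tested. Clu was the only one of the 4 called in every fit leaving out 1 library. Kcnj10 and Vim were not called without WT 1, WT 2, WT 3, KO 4, KO 5 or KO 6 (adjusted p 0.0590 to 0.155 and 0.0635 to 0.168), nor Sox9 without the same libraries except KO 6 (0.0589 to 0.116). In KO 2 and KO 3, Clu was called (1.20, adjusted p 0.00701) and Kcnj10 (0.53), Sox9 (0.62) and Vim (1.54) were not, and in KO 4 to KO 6 all 4 were (1.08, 0.56, 0.64 and 0.88), as were 42.8% of tested genes. The 10 markers did not all move together. Above 0 were 9, among them Glul (0.13) and Aqp4 (0.09), and Car2 was at -0.17. Every KO library was above every WT library for 5 and below for 1, Car2, against 10.8% and 10.1% of all tested genes. The genes closest to Rlbp1 in pattern over the 8 libraries were Mmd2 (Pearson r 0.992), Tbc1d13 (0.989), Vti1b (0.984), Got2 (0.983) and Tox4 (0.982).

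Dhrs3 split the KO libraries most clearly. It was at 55.9, 57.4 and 47.9 CPM in WT and at 57.2, 44.9, 79.8, 89.1 and 80.7 CPM in KO 2 to KO 6. KO 2 lay within the WT range, KO 3 below it and KO 4 to KO 6 above it. Over all libraries the log2 fold change was 0.39 (SE 0.20, 95% interval -0.05 to 0.83, edgeR adjusted p 0.233). It was -0.07 (SE 0.13) for KO 2 and KO 3 and 0.64 (SE 0.08) for KO 4 to KO 6, so the sign depends on the libraries. Without KO 3 alone it was 0.52 with an adjusted p of 0.0329, and with the GC offset 0.26.

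Rdh10 had the smallest fold change of the 8 genes, at 65.2, 62.2 and 57.2 CPM in WT and 65.0, 67.1, 63.1, 61.3 and 63.3 CPM in KO 2 to KO 6. Its log2 fold change was 0.06 with a 95% interval of -0.10 to 0.22 (edgeR adjusted p 0.655), and it was 0.11 with the GC offset and 0.01 without WT 3. Rdh11 was at 57.5, 62.6 and 55.9 CPM in WT and 76.1, 57.6, 66.7, 65.6 and 65.2 CPM in KO. KO 2 was highest and KO 3 fell among the WT values, with a log2 fold change of 0.17 (95% interval -0.03 to 0.38, edgeR adjusted p 0.254). The GC offset raised it to 0.24.

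Rdh5, the 11-cis-retinol dehydrogenase of the pigment epithelium, was the least abundant of the 8, at 7.46, 5.03 and 7.37 CPM in WT and 6.16, 7.42, 7.78, 9.25 and 12.1 CPM in KO 2 to KO 6. KO 6 stood highest and KO 2 among the WT values, with a log2 fold change of 0.37 (SE 0.23, 95% interval -0.14 to 0.88, edgeR adjusted p 0.323). It was 0.20 with the GC offset, and 0.21 without WT 2 or without KO 6. Of its 31-mers 22.5% occur in another gene. Pigment epithelium can stay on a dissected retina, and the summed level of 15 of its markers was 104 to 129 CPM in WT and 95.8 to 144 CPM in KO. The highest sum, in KO 6, was mostly Ttr (54.2 CPM) and Rgr (45.9 CPM). Of the pigment genes there, Dct was at 8.24 CPM against 21.1 to 25.6 CPM in WT and Tyrp1 at 2.50 CPM against 8.23 to 13.3 CPM, while Oca2 was at 1.59 CPM against 0.266 to 0.470 CPM. Rpe65 was at 7.15 CPM in KO 6 and 7.06 to 9.76 CPM in WT. The 15 markers thus did not move together. Of the 14 tested, edgeR called 0. An unadjusted p under 0.05 was found for 3, DESeq2 called 3 and limma voom 5, against 27.3%, 17.5% and 40.9% of all tested genes. Their part in the Rdh5 level was not tested.

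KO 2 and KO 3 against WT called none of the 8 genes in edgeR, where 0.891% of tested genes were called (0.624% higher and 0.267% lower) and 1 of the 8 had an unadjusted p under 0.05, as did 19.0% of tested genes. KO 4, KO 5 and KO 6 against WT called 7 of the 8, 6 higher and 1 lower, where 42.8% of tested genes were called (22.3% higher and 20.5% lower). The exception was Rdh10 (log2 fold change 0.04). The others had log2 fold changes of 0.64 (Dhrs3), 0.57 (Rdh5), 0.43 (Abca4), 0.30 (Rlbp1), 0.18 (Rdh8), 0.18 (Rdh11) and -0.23 (Rdh12). In KO 2 and KO 3 the same genes, in that order, were at -0.07, 0.04, 0.14, 0.24, -0.05, 0.19 and -0.38. Rdh11 was alike in the subsets and Rdh12 lay nearer WT in KO 4 to KO 6. The mitochondrial share was lowest in KO 4 to KO 6, and its part in these values was not tested.

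**Figure D4:**
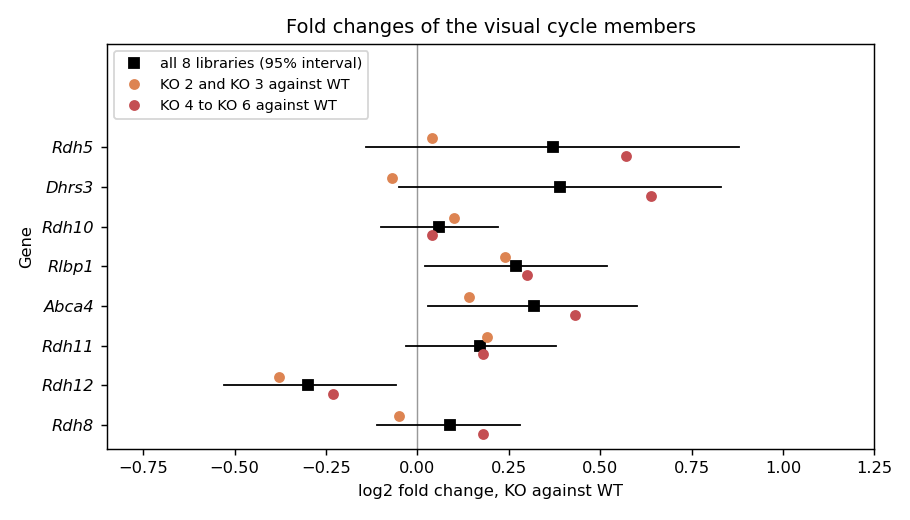
Log2 fold change of KO against WT (x axis) for the 8 visual cycle genes (y axis). Squares with 95% intervals are all 8 libraries, orange points KO 2 and KO 3, and red points KO 4 to KO 6; Dhrs3 and Rdh5 have the widest gap between orange and red, and Rdh10 the narrowest interval about 0.

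Other retinol dehydrogenases and related oxidoreductases were listed, 21 in all, of which 13 were in the table and 10 were tested. Besides Rdh9, whose call is no test because it passed the filter through KO alone, edgeR called Dhrs4, a peroxisomal retinal reductase, which was higher in KO at 8.82 ± 0.660 CPM (SD, n = 5) than in WT at 5.92 ± 0.634 CPM (SD, n = 3), by 0.58 on the log2 scale (SE 0.14, adjusted p 0.0346). All KO libraries were above all WT libraries, as for 10.8% of all tested genes. The call was lost without each of WT 1, WT 2, WT 3, KO 4, KO 5 and KO 6 in turn (adjusted p 0.0574 to 0.146) and with the GC offset (0.43, adjusted p 0.0888). It was 0.57 in KO 2 and KO 3 (adjusted p 0.158) and 0.59 in KO 4 to KO 6 (adjusted p 0.00465). None was called lower, and over all tested genes 4.74% were called higher and 2.84% lower. Rdh14 had a log2 fold change of -0.43 (adjusted p 0.0631), which was -0.27 in KO 2 and KO 3 and -0.53 in KO 4 to KO 6, where it was called (adjusted p 0.000622), and Rdh13 (0.21), Retsat (0.08), Adh5 (0.04) and Dhrs7 (0.05) did not pass. KO 4 to KO 6 against WT called 3 of the 9 tested there higher and 1 lower, where 22.3% and 20.5% of all tested genes were. The median over the 10 in all 8 libraries was 0.14, against 0.00 over all tested genes.

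Of 18 other genes of the visual cycle and of retinoid transport, 14 were tested and edgeR called 1 higher and 0 lower, against 4.74% and 2.84% of all tested genes. Their median was 0.16 on the log2 scale. That gene was Rbp3, which encodes IRBP, the retinoid carrier that photoreceptors secrete into the space facing the pigment epithelium. It was at 2640, 2739, and 2862 CPM in WT and at 4576, 2866, 4790, 5489 and 4960 CPM in KO 2 to KO 6. KO 3 was only just above WT 3, and the other KO libraries were far above. The log2 fold change was 0.72 (SE 0.18, edgeR adjusted p 0.0409), and it was 0.44 in KO 2 and KO 3 (adjusted p 0.304), 0.90 in KO 4 to KO 6 and 0.52 (adjusted p 0.0457) with the GC offset. Rbp3 was not called without WT 1, WT 2, WT 3, KO 4, KO 5 or KO 6, each left out alone (adjusted p 0.0835 to 0.165). Lrat (log2 fold change 0.83, adjusted p 0.0862), Rgr (0.58, adjusted p 0.0883), Ttr (0.65) and Rpe65 (-0.39) belong to pigment epithelium and Muller glia pathways and did not pass over all 8 libraries. With the GC offset Lrat was called (1.04, adjusted p 0.0475). In KO 4 to KO 6, where 42.8% of tested genes were called, all 4 were called, Lrat (0.76), Rgr (0.71) and Ttr (0.98) higher and Rpe65 lower (-0.73, adjusted p 0.0187), and in KO 2 and KO 3 none of the 4 was.

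Retinoic acid is made from retinal by the ALDH1A enzymes and removed by CYP26 enzymes, and of 19 listed genes of its synthesis and signalling 16 were tested. EdgeR called 2 higher, Cyp1b1 among them, and 0 lower, against 4.74% and 2.84% of all tested genes, with a list median of 0.27. Cyp1b1, a cytochrome P450 able to oxidise retinol, averaged 10.7 ± 0.569 CPM in the 3 WT libraries and 16.9 ± 2.93 CPM in the 5 KO libraries (SD), higher by 0.66 on the log2 scale (SE 0.15, adjusted p 0.0326). It was not called without WT 1, WT 2, WT 3, KO 4 or KO 5 (adjusted p 0.0635 to 0.143). It was 0.72 in KO 2 and KO 3 (adjusted p 0.104) and 0.62 in KO 4 to KO 6 (adjusted p 0.000985). The receptor genes Rara (0.38), Rarb (0.27), Rxra (0.10) and Rxrg (0.33) and the enzymes Aldh1a1 (0.14) and Cyp26a1 (0.65) did not pass over all 8 libraries. The sign of Aldh1a1 depends on the libraries, at 0.74 in KO 2 and KO 3 and -0.45 in KO 4 to KO 6 (adjusted p 0.00337). KO 4 to KO 6 against WT called 7 of the 16 higher, among them Rara (0.45), Rarb (0.51, and -0.17 in KO 2 and KO 3), Rxra (0.18) and Cyp26a1 (0.83), and 3 lower, among them Aldh1a3 (-1.69), where 22.3% and 20.5% of tested genes were called. KO 2 and KO 3 called 0 of the 16, with 7 at an unadjusted p under 0.05, where 19.0% of tested genes were. In KO 3, Fabp5 was at 573 CPM against 14.4 to 51.3 CPM in the other 7 libraries, and that library held most lens transcripts.

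**Figure D5:**
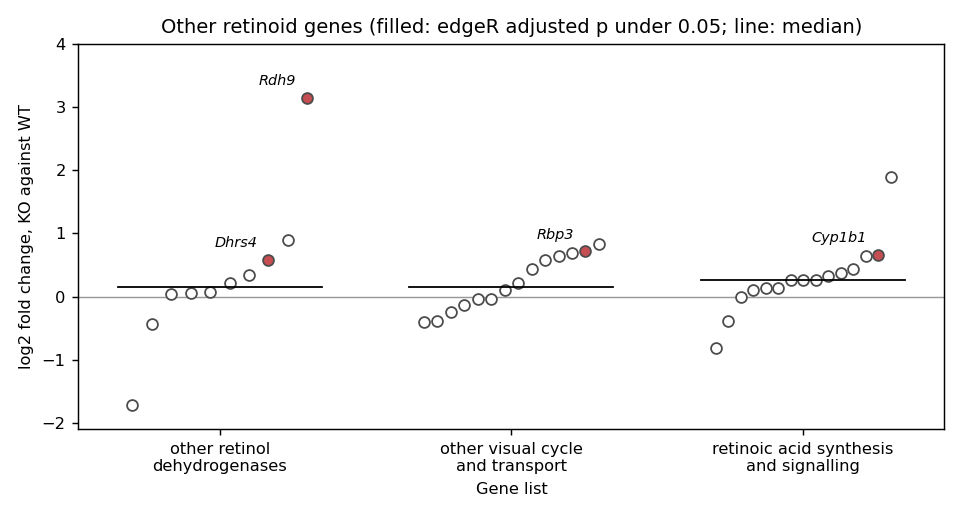
Log2 fold change of KO against WT (y axis) for the tested genes of 3 further retinoid lists (x axis), each point 1 gene, filled where the edgeR adjusted p was under 0.05, with the median of each list as a line. Rdh9 (which passed the filter through KO alone), Dhrs4, Rbp3 and Cyp1b1 are filled, 1 gene of the last list is not drawn though its list median counts it, and the medians lie at 0.14, 0.16 and 0.27.

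The photoreceptors that carry most of the visual cycle genes were measured by 10 rod and 8 cone markers. The rod markers summed to 43990 to 47720 CPM in WT and 39180 to 57630 CPM in KO, lowest in KO 3, where Abca4, Rdh8 and Rdh12 were lowest too. EdgeR called 1 rod marker, Sag (log2 fold change 0.87), and 3 cone markers, Pde6c (0.51), Pde6h (-0.74) and Gnat2 (-0.47), which makes 1 of 10 and 3 of 8 against 7.58% of all tested genes. Pde6h was called in every fit leaving out 1 library. The other 3 were not called without WT 1, WT 2, WT 3 or KO 4, nor Pde6c without KO 5, nor Gnat2 without KO 5 or KO 6 (adjusted p 0.0520 to 0.0973 for Sag, 0.0554 to 0.121 for Pde6c and 0.0664 to 0.164 for Gnat2). In KO 2 and KO 3, Pde6h was called (-0.77, adjusted p 0.0164), and Sag (0.61), Pde6c (0.47) and Gnat2 (-0.46) were not. In KO 4 to KO 6 all 4 were called (-0.71, 1.03, 0.55 and -0.47), as were 42.8% of tested genes. The cone markers summed to 907 to 1116 CPM in WT and 659 to 872 CPM in KO, so they did not overlap. Their part in the visual cycle values was not tested.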

How the data were processed

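RNA-seq libraries were made from total RNA of retinas, per the labels' protocols. The authors deposited a table of whole-number counts per gene, taken here as rounded estimated counts because Salmon 1.10.2 is named, with Trim Galore, DESeq2 and the build GRCm38, in the submitters' processing notes. Annotation release and strand setting are not given in the sources used here. The lowest total of a gene in the table is 16 counts. GENCODE M21 (GRCm38) held 22121 of 26824 identifiers and gave positions, lengths, GC content and shared 31-mers.

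From the counts, edgeR 4.0.16 in R 4.3.3 was run with TMM scaling, filterByExpr and the quasi-likelihood test (glmQLFit, glmQLFTest) on 3 WT and 5 KO libraries, with Benjamini-Hochberg adjustment over 20167 genes. Calls needed an adjusted p below 0.05. Each standard error is the log2 fold change over the square root of F, and CPM are TMM-scaled. Alternatives used DESeq2 1.42.0, limma 3.58.1 voom with quality weights, other scalings and filters, a GC offset (lowess, span 0.3), and fits leaving out libraries or lens genes. A floor of 3 counts a library equals 0.119 to 0.169 CPM. No molecular identifiers are described, so reads may be copies of a molecule and intervals from counts cover counting error only. The design text counts as many mice as libraries, names no litters, and p-values measure the spread between these libraries.

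On simulated counts for the comparison of all 8 libraries (19685 genes tested), 63.8% of genes changed 2-fold and 91.6% of those changed 4-fold were called, with 6 unchanged genes called. The genes and lists were chosen with earlier results of these data known. Named genes were the 10 listed ones, Kcnv2, called genes of the retinoid and marker lists, the most abundant markers, tested neighbours of Rdh1, and the 5 genes closest in pattern to Rdh1 and to Rlbp1. Other list genes named as not passing, Dct, Rdh16f2 and Rdh7 were picked after their values were seen. Replicate numbers 2 and 3 occur in both groups, and nothing in the labels says that they pair the libraries. Proteins were not analysed here, and a few named-gene results are not reported here.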

Additional observations from a re-analysis of the deposited data

Results flagged for a closer look

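Among the 5 libraries labelled KO, Abca4 in KO 3 lay far below the others. The gap to the next KO library was 0.801 of their whole range in log2 CPM, above the limit of 0.71 for 5 values. Its level there was 896 CPM, against 1185 to 1271 CPM in the other 4. Both ends of 10 genes were examined, 20 values in all, and chance passes the limit in about 1 of 20 groups. KO 3 was also lowest among the KO libraries for Rdh8, Rdh12, Dhrs3, Rlbp1 and Rdh11, and lens transcripts took 4.63% of its counts. What part these play was not tested.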

How the results depend on the processing

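Rdh1 and Rdh16f1 were at 3.50 to 3.74 and 3.58 to 3.79 on the log2 scale over 20 alternatives each, which are also the ranges with 1 library left out. Both were listed for this rise, so its direction in these fits is no test of it. The number of genes called over all tested genes, 1529, became 180 for KO 2 and KO 3, 8416 for KO 4 to KO 6, 3034 with DESeq2 and 8248 with limma voom. With 1 library left out it was 132 (without WT 1), 135 (WT 2), 199 (WT 3), 2781 (KO 2), 3992 (KO 3), 365 (KO 4), 388 (KO 5) or 531 (KO 6). Library size alone gave 566 higher and 787 lower, against 956 and 573.

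The counts of called genes below are in this order: the 8 function genes (0 called), other dehydrogenases (2, with Rdh9, whose call is no test), other visual cycle and transport genes (1), retinoic acid genes (2), and rod (1), cone (3), Muller glia (4), pigment epithelium (0) and lens markers (0). Tested with all 8 libraries were 8, 10, 14, 16, 10, 8, 10, 14 and 16 genes. In KO 4 to KO 6 these were 8, 9, 14, 16, 10, 8, 10, 13 and 13. KO 4 to KO 6 gave 7, 4, 8, 10, 7, 7, 7, 5 and 13, and limma voom 5, 6, 7, 8, 6, 7, 7, 5 and 1. Of all tested genes, 42.8% were called in KO 4 to KO 6 and 40.9% with limma voom. The share was 17.5% with DESeq2, 7.03% with the GC offset and 0.891% in KO 2 and KO 3, against 7.58% in the main fit. KO 2 and KO 3 gave 0 for the dehydrogenase, transport, retinoic acid and rod lists and 1 for Muller glia. DESeq2 gave 1 function gene, 3 transport genes and 2 rod, 5 cone and 3 pigment epithelium markers. The GC offset gave 1 dehydrogenase, 2 transport genes, 1 retinoic acid gene, 2 rod markers and 1 pigment epithelium marker. Library size alone gave 0 transport genes and 1 retinoic acid gene, no filter gave 0 transport genes, and a filter at 1 CPM gave 1 dehydrogenase. With 1 library left out the counts, in the same order, were 0 to 3, 0 to 3, 0 to 1, 0 to 5, 0 to 4, 1 to 5, 1 to 6, 0 to 0 and 0 to 1.

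Libraries WT 2, WT 3, KO 2 and KO 3 share replicate numbers, and the correlation of their deviations from the group means was -0.19. Each mean is of 2 libraries, whose deviations mirror each other, so this is 1 correlation and cannot exclude a pairing. The replicate block called 52 genes, the same 4 libraries without it 14, and the crossed pairing, chosen after seeing the data, 527. The replicate block called 1 cone marker and 0 dehydrogenase, transport, retinoic acid, rod or Muller glia genes, and without the block these were all 0, cone markers included. Rdh8 changed sign to -0.05 in KO 2 and KO 3, to -0.03 with the block and -0.03 without it, and to -0.12 with the GC offset. Dhrs3 changed to -0.07 in KO 2 and KO 3, -0.05 with the block and -0.04 without. Gpr182 was at -0.08 with the GC offset, 0.0 with the block, -0.04 without it and -0.09 to 0.35 with 1 library left out, and Myo1a at -0.27 to 0.01. The cause was not tested. Depth limits Rdh9, Rdh16f2 and Rdh7, which have 0 to 16 counts a library.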
